A study of Mus musculus with 12 samples.

Results

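Retinoic acid receptor and metabolism genes were examined in GFRa1+/KIT- spermatogonia of control and cryptorchid mouse testes. The 10 genes were taken by symbol from the 21859 genes of the expression table. They were the retinoic acid receptors *Rara*, *Rarb* and *Rarg*, the retinoid X receptors *Rxra* and *Rxrb*, the retinoic acid hydroxylases *Cyp26a1* and *Cyp26b1*, the retinoic acid binding protein *Crabp1*, the retinol dehydrogenase *Rdh10* and the retinol transporter *Stra6*. RNA sequencing (RNA-seq) of 12 libraries gave 5 control and 7 cryptorchid samples. The mice carried a GFRa1-EGFP reporter and were 8 to 10 weeks old at surgery. In each mouse the left testis was attached to the abdominal wall (cryptorchid, labelled with the genotype Cryptorchid) and the right testis stayed in the scrotum (control, labelled WT), and cells were sorted as GFRa1-EGFP-positive and KIT-negative on day 10. Tissue was digested for 9 min at 32°C (control) or 37°C (cryptorchid), so that digestion temperature and condition cannot be told apart, and the operated side was always the left. Which libraries came from the same mouse was not stated. RNA from about 200 of 1000 sorted cells was amplified by Smart-seq2, a full-length cDNA method without molecular identifiers.

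Retinoic acid is made from vitamin A in successive steps. Retinol enters cells through STRA6 and related transporters, is oxidised to retinal by RDH10 and then to retinoic acid by ALDH1A enzymes, is held in the cytoplasm by CRABP proteins and is broken down by CYP26 enzymes. In the nucleus it binds RARs, which pair with RXRs on DNA repeats called retinoic acid response elements. In the testis, retinoic acid drives the change of undifferentiated spermatogonia into KIT-positive differentiating spermatogonia and induces *Stra8*, and RARG is the receptor best known for this step in spermatogonia.

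*Cyp26a1* and *Rarb* are textbook targets whose own promoters carry such an element, and the stretches holding it are shown because both genes are among the 10. The sequences are the 100 bases before the annotated start, read 5′ to 3′ on the gene's strand, from RefSeq promoter windows of GRCm38.p6. Capitals mark a pair of hexamers spaced by 5 bases (DR5). The *Cyp26a1* stretch is chr19:37697708-37697807 on the plus strand and the *Rarb* stretch is chr14:16575477-16575576 on the minus strand. These RefSeq starts differ from the ends of the GENCODE gene spans given below. The *Rarb* stretch lies inside its gene span, before an internal start, and the *Cyp26a1* stretch reaches past the first base of its span.

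Cyp26a1: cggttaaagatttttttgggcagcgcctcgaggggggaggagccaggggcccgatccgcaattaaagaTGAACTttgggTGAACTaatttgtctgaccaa

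Rarb: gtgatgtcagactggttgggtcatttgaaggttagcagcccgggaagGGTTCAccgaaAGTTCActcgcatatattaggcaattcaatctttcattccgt

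The search, on both strands, took the consensus hexamer AGGTCA and 3 close relatives of it, namely AGTTCA (which both printed matches hold), the hexamer GGTTCA (the first one in *Rarb*), and lastly GGGTCA, each followed by 5 bases and any of the same 4 hexamers. The *Cyp26a1* match lay on the opposite strand, from 32 to 16 bases before the start, and the *Rarb* match on the gene's strand, from 53 to 37 bases before it. Such a DR5 was present in 32 of 32851 windows of 300 bases (0.0974%). Of the 10 genes, 9 had at least 1 window, 18 in all, and only these 2 held a DR5. Spacings of 1 base (DR1, 0.222% of windows) and 2 bases (DR2, 0.268%) were found in none of the 18.

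Levels are given as log2 RPM, the logarithm to base 2 of reads scaled to a common library total. In the table a gene without reads carries the value of 0.9 reads, and read numbers were recovered from the values. Reads on genes ranged from 4511730 to 24345368 in control and from 3306771 to 20027902 in cryptorchid libraries. Libraries numbered 1 to 3 in each group differed from those numbered 4 and above in a technical trait, since the share of even read numbers among genes with at most 20 reads was 53.2 to 60.8% in libraries 1 to 3 and 48.2 to 50.5% in the others. Differences are therefore also given within these library sets (3 control against 3 cryptorchid, and 2 against 4). The labels name no batch. *Gfra1*, whose reporter was used for sorting, was at 7.88 ± 0.88 log2 RPM in control (SD, n = 5) and 8.40 ± 0.70 in cryptorchid (n = 7). Since the cells were sorted on this reporter, the *Gfra1* level is no independent check of their identity. *Zbtb16*, which encodes PLZF, was at 8.33 ± 0.69 and 8.54 ± 0.57, and markers of other cells are given further below. *Kit*, whose protein was gated out, was at 4.49 ± 0.63 and 4.94 ± 0.57.

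Of the 10 genes, 9 passed the filter on low values (log2 of mean RPM above -1). A gene was called when cryptorchid and control differed at least 2-fold with an unadjusted limma *P* under 0.05. By this rule *Rarg* and *Cyp26a1* were called lower in cryptorchid spermatogonia, and 0 of the 9 were called higher. Over all 16932 genes tested, 399 (2.36%) were called lower and 603 (3.56%) higher. *Rara* also had an unadjusted *P* under 0.05 but a change of less than 2-fold, which makes 3 of 9 against 9.48% of all genes. None of the 9 passed an adjusted *P* of 0.05, which 2 of 16932 genes did (0.0118%). In none of the 9 did the 5 control and 7 cryptorchid values separate completely, as they did in 0.839% of all genes. The median difference of the 9 was -0.48 on the log2 scale, beside 0.10 over all genes tested, and 7 of 9 were below 0.

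**Figure D1:**
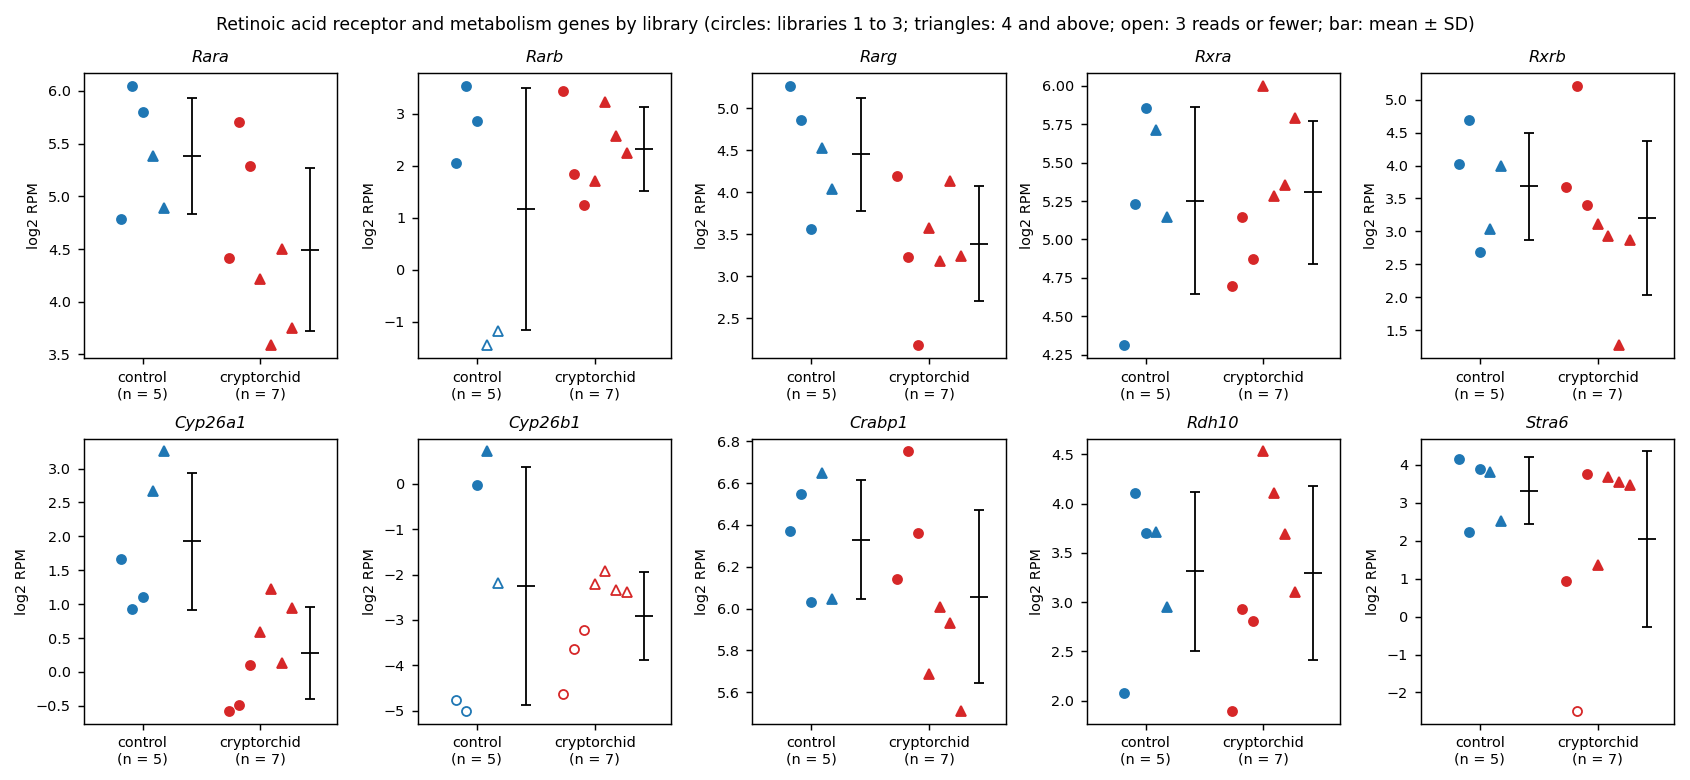
Log2 RPM (y axis of each panel) of the 10 genes in the 5 control (blue) and 7 cryptorchid (red) libraries, with circles for libraries 1 to 3, triangles for 4 and above, open symbols for 3 reads or fewer, and bars for the mean ± SD. All 7 cryptorchid values of *Rarg* and *Cyp26a1* lie below the control median, and the 2 lowest control values of *Rarb* rest on 2 reads each.

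Among the receptors, *Rara* (chr11:98927818-98974942, plus strand) had control values of 4.79, 6.05, 5.80, 5.38 and 4.89 log2 RPM. The cryptorchid values ran from 3.59 through a median of 4.42 to 5.71. Of the 7 cryptorchid libraries, 5 were below every control and 2 were within the control range. The difference was -0.89 ± 0.39 (SE), a 1.85-fold lower level (limma adjusted *P* = 0.483). The exact two-sided permutation test over all ways to draw 7 of the 12 libraries gave *P* = 0.0581. The difference was -0.41 in libraries 1 to 3 and -1.12 in libraries 4 and above. Its unadjusted *P* reached 0.103 when control replicate 2 was left out and was also above 0.05 without control replicate 3 or 4, or cryptorchid replicate 4, 5 or 7.

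*Rarg* (chr15:102234938-102257517, minus strand) had control values of 5.26, 4.87, 3.57, 4.53 and 4.03 log2 RPM. The cryptorchid values were 2.18 at the lowest, 3.24 at the median and 4.19 at the highest. All 7 cryptorchid libraries were below the control median and 4 were below every control, while 3 lay within the control range, which reached down to 3.57 in control replicate 3. The difference was -1.06 ± 0.43, or 2.09-fold lower (limma *P* = 0.0241, adjusted *P* = 0.449, exact permutation *P* = 0.0227). It was -1.36 within libraries 1 to 3 and -0.75 within libraries 4 and above, below 0 in both. The call was lost without control replicate 1 (-0.86, unadjusted *P* = 0.0818) or control replicate 2 (-0.96, unadjusted *P* = 0.0603), and without cryptorchid replicate 3 the difference was -0.86, under 2-fold. Reads on *Rarg* numbered 74 to 935 in control and 31 to 408 in cryptorchid libraries.

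*Rarb* (chr14:16430839-16819156, minus strand) was the weakest of the 3 RAR genes and was uneven between control libraries. Control replicates 1 to 3 had 101, 332 and 74 reads, and replicates 4 and 5 had 2 reads each, which gave 2.05, 3.53, 2.86, -1.46 and -1.17 log2 RPM. The 7 cryptorchid libraries had 15 to 242 reads, and their values, from 1.25 through 2.24 to 3.44, all lay within the control range. The difference of 1.16 ± 0.86 was not called (limma *P* = 0.194, adjusted *P* = 0.705, exact permutation *P* = 0.264). It was -0.64 within libraries 1 to 3 and 3.75 within libraries 4 and above, where the control side consisted of the replicates with 2 reads. The test of the difference between these sets gave an unadjusted *P* of 0.00255 (limma interaction term) and an adjusted *P* of 0.9996 over all genes. In the mm10 annotation 1793 bases, 45.5% of the *Rarb* exons, overlap exons of *Top2b* on the other strand. How strands were treated in counting is not given in the sources used here, so reads of the pair cannot be told apart and the *Rarb* values are uncertain. *Top2b*, a DNA topoisomerase gene, was at 4.34 and 4.93 log2 RPM in the control libraries where *Rarb* had 2 reads, and its lowest value, 0.85 in control replicate 2, coincided with the highest *Rarb* value.

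The RXR partners did not pass the test. *Rxra* (chr2:27676440-27762957, plus strand) ran from 4.31 to 5.86 log2 RPM in control and from 4.70 to 5.998 in cryptorchid libraries. Its difference was 0.05, with a 95% interval of -0.62 to 0.73, so a 2-fold change in either direction lay outside the interval (adjusted *P* = 0.970). The sign of this small difference turned under several alternatives. *Rxrb* (chr17:34031812-34038399, plus strand) ran from 2.69 to 4.69 and from 1.27 to 5.20, with a difference of -0.48 and an interval of -1.69 to 0.73 (adjusted *P* = 0.832). For *Rxrb* the difference was 0.29 within libraries 1 to 3 and -0.97 within libraries 4 and above.

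**Figure D2:**
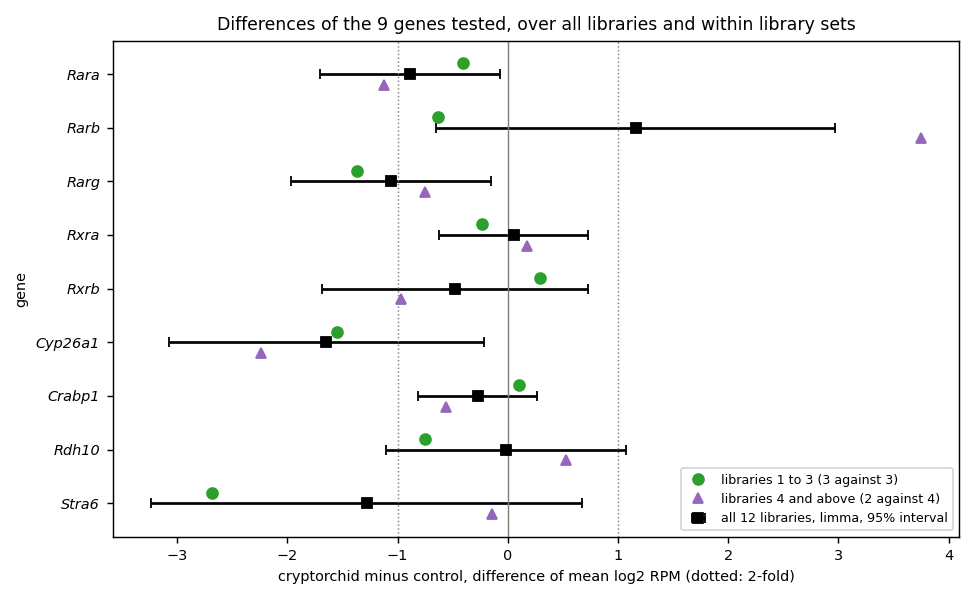
Cryptorchid minus control differences of mean log2 RPM (x axis) for the 9 genes tested (y axis), as black squares with 95% intervals from limma over all 12 libraries, and as green circles and purple triangles within libraries 1 to 3 and libraries 4 and above. *Rara*, *Rarg* and *Cyp26a1* have intervals below 0, and the sets diverge most for *Rarb* (-0.64 and 3.75).

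Between genes, levels were compared as RPM per kilobase of exon, and the share of each gene in the summed RAR level was computed in every library. The summed level of *Rara*, *Rarb* and *Rarg* had a median of 17.5 RPM per kilobase in control (11.3 to 26.0) and 10.9 in cryptorchid libraries (6.80 to 15.6), so the groups overlapped. *Rara* had the largest median share, 61.3% of the sum in control (36.9 to 72.5%) and 46.5% in cryptorchid (37.2 to 83.7%). *Rarg* had a median share of 37.7% in control (17.2 to 57.1%) and 36.1% in cryptorchid (10.8 to 40.3%). *Rarb* made up 6.01% (0.583 to 11.3%) and 13.2% (5.54 to 31.5%), with the limit on its reads given above.

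**Figure D3:**
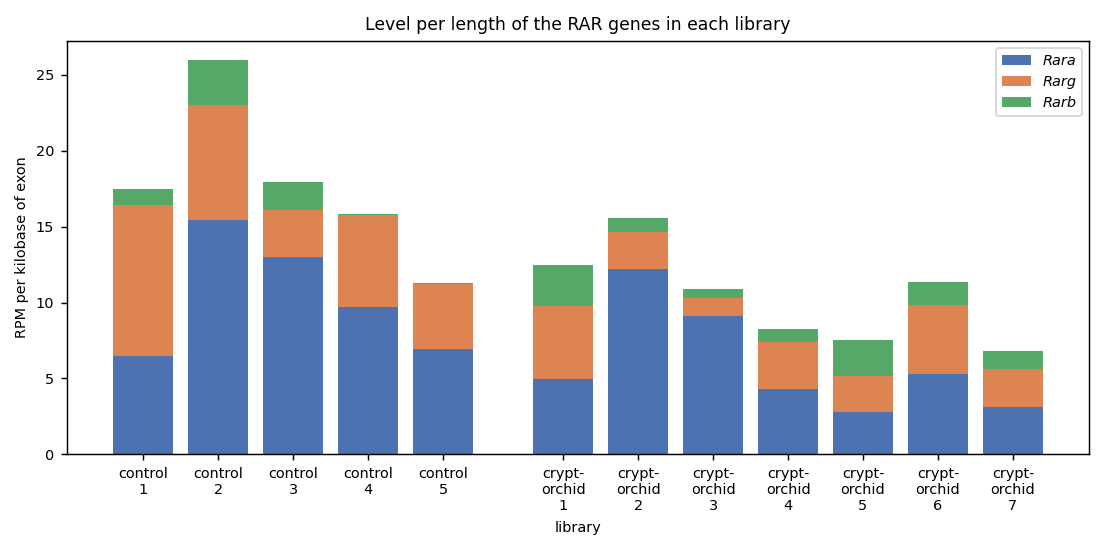
Stacked RPM per kilobase of exon (y axis) of *Rara*, *Rarg* and *Rarb* in each of the 12 libraries (x axis). The sum ranges from 11.3 to 26.0 in control and from 6.80 to 15.6 in cryptorchid libraries, and *Rarb* is nearly absent in control replicates 4 and 5.

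The breakdown enzyme *Cyp26a1* (chr19:37697798-37701536, plus strand) was called lower in cryptorchid spermatogonia. It is itself induced by retinoic acid in many cells. Control libraries had 77, 55, 22, 35 and 43 reads, and cryptorchid libraries had 15, 8, 9, 7, 8, 5 and 9. The control values were 1.66, 0.93, 1.11, 2.67 and 3.25 log2 RPM, and the cryptorchid values ran from -0.57 through 0.14 to 1.23. All 7 cryptorchid libraries lay below the control median and 5 below every control. The difference was -1.65 ± 0.68, or 3.13-fold lower (limma *P* = 0.0264, adjusted *P* = 0.463, exact permutation *P* = 0.00758). It was -1.55 within libraries 1 to 3 and -2.23 within libraries 4 and above. Without control replicate 4 or 5, the highest controls, the differences were -1.46 (unadjusted *P* = 0.0728) and -1.31 (unadjusted *P* = 0.0951), and the call was lost.

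*Cyp26b1* (chr6:84571414-84593908, minus strand), the hydroxylase known for protecting fetal male germ cells from retinoic acid, did not pass the filter. Control libraries had 0, 0, 10, 9 and 1 reads. Among cryptorchid libraries 6 had 0 reads and 1 had 1 read. A level in the cryptorchid group was not detectable at this depth, where 3 reads corresponded to -2.89 to -0.19 log2 RPM, and no fold is given.

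*Crabp1* (chr9:54764748-54773110, plus strand), which binds retinoic acid in the cytoplasm, had the highest level of the 10 genes per length, with a median of 103 RPM per kilobase in control and 80.3 in cryptorchid libraries. Its control range, 81.5 to 125 RPM per kilobase, lay wholly above that of the next gene, *Rara* (6.46 to 15.4). Control values were 6.37, 6.55, 6.03, 6.65 and 6.04 log2 RPM and cryptorchid values ran from 5.51 through 6.01 to 6.75. The spread of 0.28 (SD) between controls was the smallest of the 10 genes. The difference of -0.27 was not called (95% interval -0.81 to 0.27, adjusted *P* = 0.770), and it was 0.10 within libraries 1 to 3 and -0.56 within libraries 4 and above. Below *Crabp1* the order by control median was *Rara*, *Rxra*, *Rarg*, *Rxrb*, *Rdh10*, *Stra6*, *Cyp26a1*, *Rarb* and *Cyp26b1*, and each gene in this order overlapped the next in its control range.

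*Rdh10* (chr1:16105774-16133734, plus strand), the dehydrogenase of the first oxidation step, ran from 2.08 to 4.11 log2 RPM in control and from 1.90 to 4.53 in cryptorchid libraries. The difference was -0.02 with an interval of -1.11 to 1.08 (adjusted *P* = 0.995), which leaves a 2-fold change within the interval. It was -0.75 within libraries 1 to 3 and 0.53 within libraries 4 and above.

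*Stra6* (chr9:58063788-58153996, plus strand) had control values of 4.15, 2.24, 3.91, 3.81 and 2.53 log2 RPM. The cryptorchid values were 0.95, -2.48, 3.76, 1.37, 3.69, 3.54 and 3.48, the -2.48 resting on 2 reads in replicate 2. Thus 3 cryptorchid libraries were below every control and 4 lay within the control range. The difference of -1.28 ± 0.93 was not called (limma adjusted *P* = 0.697, exact permutation *P* = 0.292). When read numbers were weighted by voom it was -1.72 and passed the call rule, with an adjusted *P* of 0.457. Without cryptorchid replicate 2 it was -0.53, and within the library sets it was -2.69 and -0.15.

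The other genes of the pathway were described from a list of 37 symbols that holds none of the 10 above. All 37 were in the table and 33 were tested. Of these, 3 were called higher in cryptorchid spermatogonia, against 3.56% of all genes, and 0 were called lower. None passed an adjusted *P* of 0.05. The median difference of the 33 was 0.11, close to the 0.10 of all genes. Of 7 carriers and binding proteins 1 was called (*Crabp2*, median of the 7 0.72). This median was the difference of *Rbp2*, which had 0 reads in 4 of 5 control and 5 of 7 cryptorchid libraries. A gene without reads carried a median value of -3.50 log2 RPM in control and -2.38 in cryptorchid libraries. The median of the 7 therefore depends on the value given to libraries without reads. Of 7 receptor partners and coregulators 1 was called (*Ncoa1*, median of the 7 0.11), of 15 genes of synthesis and reduction 1 was called (*Adh1*, median 0.02), and of 4 genes of storage and breakdown 0 were called (median 0.35).

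*Crabp2*, which delivers retinoic acid to nuclear receptors, had 60, 0, 2, 2 and 0 reads in the control libraries and 3 to 127 reads in the cryptorchid libraries. Control values reached 1.30 log2 RPM in replicate 1, and the cryptorchid values ran from -1.49 through 2.86 to 4.19, so that 6 of 7 cryptorchid libraries were above every control. The fitted difference of 4.37 ± 1.07 (limma adjusted *P* = 0.199, exact permutation *P* = 0.00631) depends on the value given to libraries without reads, and it was above 0 in both library sets (3.45 and 5.02).

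*Ncoa1*, a coactivator of nuclear receptors, was at 3.21 ± 1.04 in control and 4.40 ± 0.67 in cryptorchid (difference 1.19 ± 0.48, limma adjusted *P* = 0.440, exact permutation *P* = 0.0341). The *Ncoa1* call was lost without control replicate 1 (0.84, unadjusted *P* = 0.0841) or cryptorchid replicate 5 (1.06, unadjusted *P* = 0.0507). *Adh1*, a retinol-oxidising alcohol dehydrogenase, had 0 reads in 3 libraries, and its call (difference 2.75 ± 1.19, limma adjusted *P* = 0.479, exact permutation *P* = 0.0644) was lost when any 1 of 6 libraries was left out (control 1, 2 or 4 or cryptorchid 2, 5 or 7), with an unadjusted *P* of up to 0.109. The genes that make retinoic acid from retinal were not called. *Aldh1a2* was the highest of them in log2 RPM, at 5.27 ± 0.53 and 5.65 ± 0.44 (difference 0.38, adjusted *P* = 0.728). *Aldh1a1* differed by 1.17 (adjusted *P* = 0.673) and *Aldh1a3* by 0.45 (adjusted *P* = 0.795), and *Dhrs3*, which reduces retinal back to retinol, by 0.13 (adjusted *P* = 0.958).

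**Figure D4:**
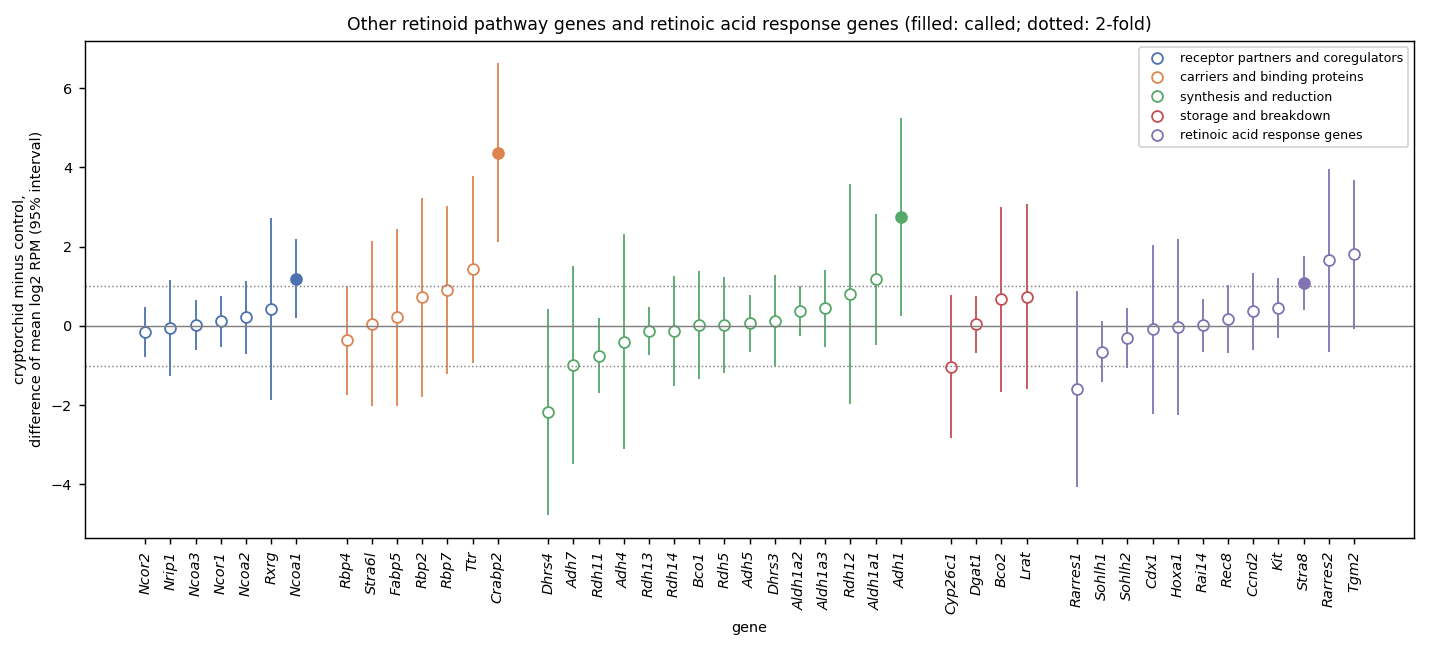
Cryptorchid minus control differences of mean log2 RPM with 95% limma intervals (y axis) for the 33 other pathway genes and 12 response genes tested (x axis), coloured by list, with filled circles for called genes. The 4 called genes, *Ncoa1*, *Crabp2*, *Adh1* and *Stra8*, are all above 0.

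Other genes known to respond to retinoic acid were taken from a list of 14, of which 13 were matched by symbol and 12 were tested. The list leaves out *Cyp26a1* and *Rarb*, which are among the 10 genes above, and *Cyp26a1* was called lower. Of the 12, *Stra8* was called higher (3.56% of all genes) and 0 were called lower (2.36% of all genes), and the median difference of the 12 was 0.09 beside 0.10 over all genes. *Stra8* had control values of 6.13, 5.52, 5.48, 6.47 and 6.26 log2 RPM and cryptorchid values from 6.11 through 7.21 to 7.70. Of the 7 cryptorchid libraries 5 were above every control, and replicates 2 and 3 lay within the control range. The difference was 1.09 ± 0.33, or 2.12-fold (limma *P* = 0.00371, adjusted *P* = 0.273, exact permutation *P* = 0.0177), with 0.75 and 1.14 within the library sets. It fell just under 2-fold, with an unadjusted *P* of at most 0.0132, without control replicate 2 or 3 or cryptorchid replicate 4 or 5. *Kit* differed by 0.45 (adjusted *P* = 0.725). Of the others, the smallest unadjusted *P* values were those of *Tgm2*, a transglutaminase gene (difference 1.81, adjusted *P* = 0.543), and *Sohlh1*, a spermatogonial transcription factor gene (-0.65, adjusted *P* = 0.603).

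**Figure D5:**
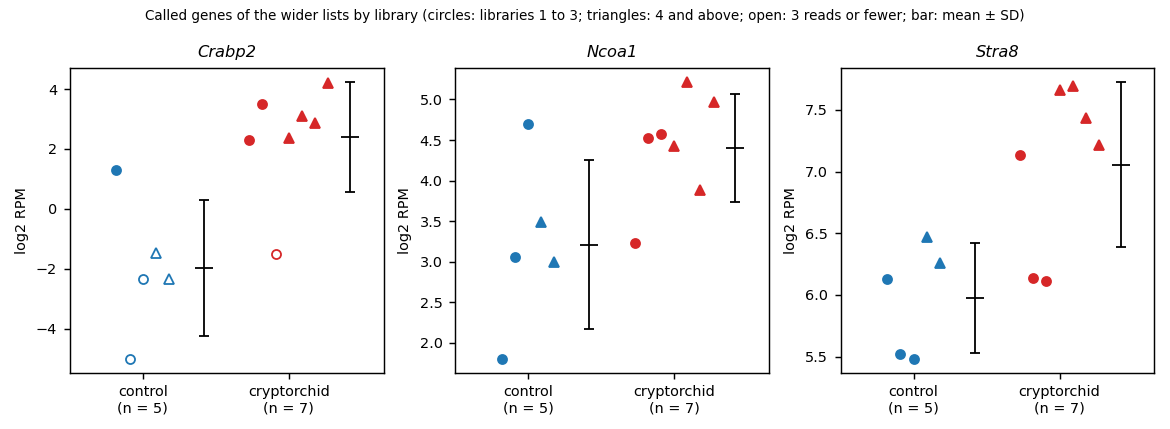
Log2 RPM (y axis of each panel) of *Crabp2*, *Ncoa1* and *Stra8* in the 5 control (blue) and 7 cryptorchid (red) libraries, with symbols as in the plot of the 10 genes. Open symbols mark 3 reads or fewer, as in 4 of 5 control libraries for *Crabp2*.

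Some markers of other cells were called between the groups, and none of those named here passed an adjusted *P* of 0.05. Over all genes tested, 2.36% were called lower and 3.56% higher. Of 6 spermatid genes 3 were called lower (*Prm1*, *Prm2* and *Odf1*) and 0 higher, and the summed level of the 6 ran from 481 to 2558 RPM in control and from 12.5 to 1666 in cryptorchid libraries. Mean *Cyp26a1* was higher in libraries 4 and above than in libraries 1 to 3, in control (2.96 and 1.23 log2 RPM) and in cryptorchid (0.73 and -0.32). Control replicates 4 and 5, the controls of that set and the 2 with the highest *Cyp26a1*, also had the highest spermatid sums (2171 and 2558 RPM). Library set and spermatid sum cannot be told apart in these 2 controls. Among cryptorchid libraries the order differed, since replicate 6 had the highest sum (1666 RPM) with *Cyp26a1* at 0.14 log2 RPM, and replicate 5, with the highest *Cyp26a1* of these (1.23), had a sum of 92.0 RPM. Of 5 endothelial genes 3 were called higher (*Cdh5*, *Tie1* and *Vwf*), with sums of 3.64 to 20.2 RPM in control and 12.5 to 38.3 in cryptorchid. Of 6 macrophage genes 1 was called higher (*Mrc1*, sums of 3.62 to 25.2 and 11.2 to 37 RPM), as was 1 of 4 tested genes of peritubular myoid cells (*Des*, 1.46 to 16.5 and 0.714 to 14.5 RPM). Genes of Sertoli cells (45.4 to 264 and 42.0 to 250 RPM), Leydig cells (8.64 to 15.5 and 6.18 to 47.8 RPM), lymphocytes (0.278 to 8.20 and 0.833 to 12.5 RPM) and spermatocytes (241 to 280 and 228 to 374 RPM) had 0 calls in either direction. *Amh*, a Sertoli cell gene, had 0 reads in every control library, and *Cyp17a1*, a Leydig cell gene, had 0 in every cryptorchid library. The part of these cells in the values of the 10 genes was not tested. In such bulk samples, fewer cells of a type and less RNA per cell cannot be told apart.

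The genes whose log2 RPM over the 12 libraries was most like that of *Rarg* were *Acap3* (Pearson r = 0.93), *Tedc1* (r = 0.93) and *B3galt6* (r = 0.93), and those most like *Crabp1* were *Adprh* (r = 0.90), *Ranbp3* (r = 0.90) and *Pqlc2* (r = 0.89). These were the highest of 13459 genes with at least 1 read in every library, and the points share depth, library set and condition.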

How the data were processed

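RNA-seq of 12 libraries was used. Per the labels and the study's methods, the authors used Trim Galore for trimming, HISAT2 2.1.0 for alignment (mm10) and SeqMonk for read counts over UCSC protein-coding genes, and left out datasets with excessive duplicates. The deposited values are log2 RPM. Genes without reads carry the value of 0.9 reads, and whole read numbers were recovered for 100% of values under 1000 reads (tolerance 0.1). Cryptorchid and control were compared with limma 3.58.1 (R 4.3.3, lmFit, eBayes with trend) on log2 RPM of genes with log2 mean RPM above -1, with Benjamini-Hochberg adjustment over all 16932 genes and no block, together with exact permutation tests of single genes. The code was tested on simulated data. Positions and exon lengths are from GENCODE vM21 (GRCm38), promoters from RefSeq. The 10 genes and all lists were chosen with earlier results of these data known. Named were all 10 genes, called genes of the wider lists (or the 3 with the smallest *P* where fewer than 3 were called), fixed retinoid genes, markers, and the 3 genes most like *Rarg* and *Crabp1*. *Top2b*, *Rbp2*, *Cdh5*, *Tie1*, *Vwf*, *Mrc1*, *Des*, *Prm1*, *Prm2* and *Odf1* were named after their values were seen. A planned gene of the wider list is not reported here. Alternatives covered scaling, pseudocount, filter, weights, read-level weighting (voom), blocks, library sets and each library left out. Libraries differed pairwise beyond sampling noise. Nothing says that libraries came from separate mice, so *P* values measure the spread between these samples. Read numbers without molecular identifiers are not independent molecules.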

Additional observations from a re-analysis of the deposited data

How the results depend on the processing

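Over the alternatives, 193 of the tested settings for the 9 single genes kept direction and side of an unadjusted *P* of 0.05 (limma or exact permutation). This tally left the 2-fold limit out. In 16 settings a *P* under 0.05 was lost, in 5 it was gained and in 19 the sign turned. All 16 losses fell on the 3 genes that had such a *P* in the main fit. These were *Rara* (9 lost, 17 kept), *Rarg* (4 lost, 22 kept) and *Cyp26a1* (3 lost, 22 kept). By the call rule, *Rarg* lost its call in 7 of 25 alternative fits and *Cyp26a1* in 3 of 24. The cause was not tested. The ratio of mean RPM, which has no test, moved all 9 values by less than 1 SD between replicates and turned the sign of *Rdh10* (0.05). The genes called lower numbered 1 with log2(RPM + 1), 1 with the stricter filter (above 2), which leaves out *Cyp26a1*, 0 in libraries 1 to 3 only and 1 to 3 when a library was left out. *Rara* was called lower with array weights (-1.04), in libraries 4 and above (-1.12), and without control replicate 1 (-1.03) or 5 (-1.01) or cryptorchid replicate 2 (-1.09) or 3 (-1.02). *Rarg* was not called with array weights (-0.95), in libraries 4 and above (-0.75), or without control replicate 1 (-0.86) or cryptorchid replicate 3 (-0.86). Genes called higher numbered 1 with array weights and 1 in libraries 4 and above only, in each case *Rarb* (2.38 and 3.75). The wider retinoid list had 0 called higher in libraries 1 to 3 and 1 to 4 with a library left out, and called lower 1 under quantile normalization, log2(RPM + 1), the common floor, array weights and the batch term, 2 in libraries 4 and above and 0 to 1 with a library left out. Response genes called higher were 3 with array weights, 2 with voom, 0 with the batch term or in libraries 1 to 3 and 0 to 2 with a library left out, and called lower 1 in libraries 4 and above and 0 to 1 with a library left out. Over all genes, calls higher were 385 with the stricter filter, 287 in libraries 1 to 3 and 501 to 750 with a library left out, and calls lower were 703 with array weights, 635 with the batch term, 705 in libraries 4 and above and 280 to 572 with a library left out. Genes past the adjusted threshold numbered 4 under median centring and quantile normalization, 5 with log2(RPM + 1), 476 with array weights, 46 with the batch term, 0 in either library set and 0 to 9 with a library left out.

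The sign turned in libraries 1 to 3 for *Rarb* (-0.64), *Rxra* (-0.23), *Rxrb* (0.29) and *Crabp1* (0.10). *Rxra* turned under median centring (-0.013) and the batch term (-0.038), and ran from -0.18 to 0.21 with a library left out. *Rdh10* turned under array weights (0.43) and in libraries 4 and above (0.53), and ran from -0.32 to 0.22 with a library left out.

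With a replicate block, 1 of the 9 genes passed the adjusted threshold (*Rarg*, -1.18, limma adjusted *P* = 0.0477), 3 were called lower (*Rarg*, *Cyp26a1* and *Stra6*, the last at -1.87), *Rxra* was at -0.053, the wider list had 2 called higher and 2 lower, and 949 genes passed the adjusted threshold over all genes, with 900 called lower. Among the 949 were *Stra8* (limma adjusted *P* = 0.00730) and *Crabp2* (0.0498), but *Stra8*, at 0.98, was under 2-fold there and so not called. Array weights also put both past the adjusted threshold (limma adjusted *P* = 0.0178 for *Stra8* and 0.0103 for *Crabp2*). Replicate numbers were not taken as pairs, since the labels do not tie libraries to mice and 1 of the 5 same-number correlations was 0.05. The other 4 were above 0.1, up to 0.41, and 4 of 5 control libraries correlated best with their own number. Library set was not removed from these correlations. Control replicate 4 was at 0.25, 0.23 and 0.24 with cryptorchid replicates 4, 6 and 7. The count of best matches is therefore at most a hint of pairing from the data. Read numbers limit *Cyp26b1*, *Rarb* and *Crabp2*, which had 3 reads or fewer in several libraries.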

Other observations

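Of 5 markers of differentiating spermatogonia, *Stra8* was called higher (3.56% of all genes), 3 were not called, and *Dnmt3b*, a DNA methyltransferase gene of differentiating spermatogonia, was called lower (2.36% of all genes). *Dnmt3b* was at 7.05 ± 0.58 log2 RPM in control, SD, n = 5, and 5.84 ± 0.52 in cryptorchid, n = 7 (difference -1.20 ± 0.31, limma adjusted *P* = 0.215, exact permutation *P* = 0.00758). Of 14 genes of undifferentiated spermatogonia 0 were called in either direction, 7 differences were above 0 and 7 below, and their median was -0.01. The smallest unadjusted *P* was that of *Nanos3*, an RNA-binding regulator of germ cells, at 5.84 ± 0.84 and 4.87 ± 0.80 (difference -0.97, limma adjusted *P* = 0.483, exact permutation *P* = 0.0657).

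The 32 promoter windows with a DR5 belonged to 31 genes, of which 14 were in the table and 8 were tested. Of these 8, *Cyp26a1*, already described, was called lower (2.36% of all genes) and 0 were called higher (3.56%), and their median difference was 0.06. Besides *Cyp26a1* and *Rarb*, they included *Blvrb*, a biliverdin reductase gene (difference -1.95, limma adjusted *P* = 0.531). Of the 51 genes in the wider pathway and response lists, 36 had a promoter window, and none of these windows held a DR5.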
